A study of Mus musculus with 18 samples.

Results

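Wild-type mouse epidermis taken 24 h after tape stripping was compared with unstressed wild-type epidermis. The comparison rests on 6 of the 18 arrays of the series, 3 at 24 h and 3 at 0 h, chosen by their titles, and on the 23521 of 33793 rows that name 1 gene symbol. All 6 come from female AhR+/+ mice on a B6;129 background, littermates of AhR-/- animals of the line B6.129-AhRtm1Bra/J, which lack the aryl hydrocarbon receptor (AhR). At 0 h the shaved back skin was unstressed, and at 24 h it had been stripped 5 times with Tegaderm film a day earlier. The other 12 arrays hold WT skin at 6 h and AhR-/- (KO) skin at 0 h, 6 h and 24 h, again 3 arrays a group. RNA came from epidermal sheets, which carry all cells of the epidermis and the parts of hair follicles that come away with it. The series text speaks of 3 animals of each genotype per time point, so each array was taken as 1 mouse. In such bulk RNA, fewer cells of a type and less RNA per cell cannot be told apart.

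Tape stripping pulls off the outer cornified layers and opens the skin barrier. Epidermis answers this kind of injury with cytokine release, lipid synthesis that refills the barrier, keratins and envelope proteins of stressed keratinocytes, and later a round of division of basal cells. The epidermis of mice also holds 2 resident immune populations, dendritic epidermal T cells and Langerhans cells. AhR is a ligand-activated transcription factor of keratinocytes and of these immune cells, known for inducing cytochrome P450 enzymes and for a part in barrier maintenance.

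The values are log differences, taken as log2, from which each row's median over all 18 arrays was removed. They show how one array differs from another for the same gene and carry no absolute level, so the presence of a cell type's markers could not be checked by level. Array medians lay within 0.02 of 0. The SD over all rows was 0.222 on the first WT array at 0 h, the widest of the 18, and 0.15 and 0.141 on the other two, against 0.167, 0.153 and 0.137 at 24 h. The Ahr row lay lower on every KO array than on every WT array of the same time, although which part of the gene the row reads is not known from the table. At 0 h it read -0.13, 0.04 and -0.02 on the KO arrays and 0.63, 0.16 and 0.07 on the WT arrays. In WT at 24 h Ahr read -0.01, 0.12 and 0.01, a difference from 0 h of -0.25 ± 0.143 log2 (SE) with an adjusted p of 0.524. Every SE and adjusted p here comes from limma fitted over all 18 arrays, with Benjamini-Hochberg adjustment over the 23521 rows.

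Few genes were called at 24 h, and all of them fell. At an adjusted p under 0.05, 7 rows were lower, 0.0298% of the rows tested, and none was higher. They name Nol8, Trat1, Hsp90b1, Pnn, Gcc2, Dhx9 and Erap1, with falls of 0.55 to 1.09 log2, or 1.47-fold to 2.13-fold. A wider set is used below for description. At an adjusted p under 0.10 it holds 229 rows (0.974% of rows), 170 of them lower (0.723% of rows) and 59 higher (0.251%). This set is not stable: with arrays 1, 2 and 3 at 0 h left out in turn, 6, 95 and 0 rows had an adjusted p under 0.10, and with arrays 1, 2 and 3 at 24 h left out in turn, 0, 83 and 0. All 229 kept their sign in each of these fits, but they were chosen for their difference on these same arrays, so a changed sign was unlikely. What is said below of gene span, of 6 h and of KO for the lower and higher rows rests on this set. Without adjustment, 1573 rows had a p under 0.05 and were lower (6.69%) and 1373 were higher (5.84%). The median over all rows was 0.01 log2, and the SD of the differences was 0.177. The plot of p against the size of the change shows more rows of low p left of 0 than right of it. With any 1 of the 6 WT arrays left out, none of the 7 passed, and their adjusted p then lay between 0.0578 and 0.155. All 7 stayed below 0, but their groups do not overlap, so leaving out 1 array could not change a sign. A second quantile normalisation raised the count to 264 rows, the 7 among them. The labels also give each sample a number of unstated meaning. It is 3000 or more for all 24 h arrays, and at 0 h for 1 of the 3 WT arrays. On the KO arrays at 0 h it is 2374, 3055 and 3121. With this class as a block 9 rows passed, 3 of the 7 among them.

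**Figure D1:**
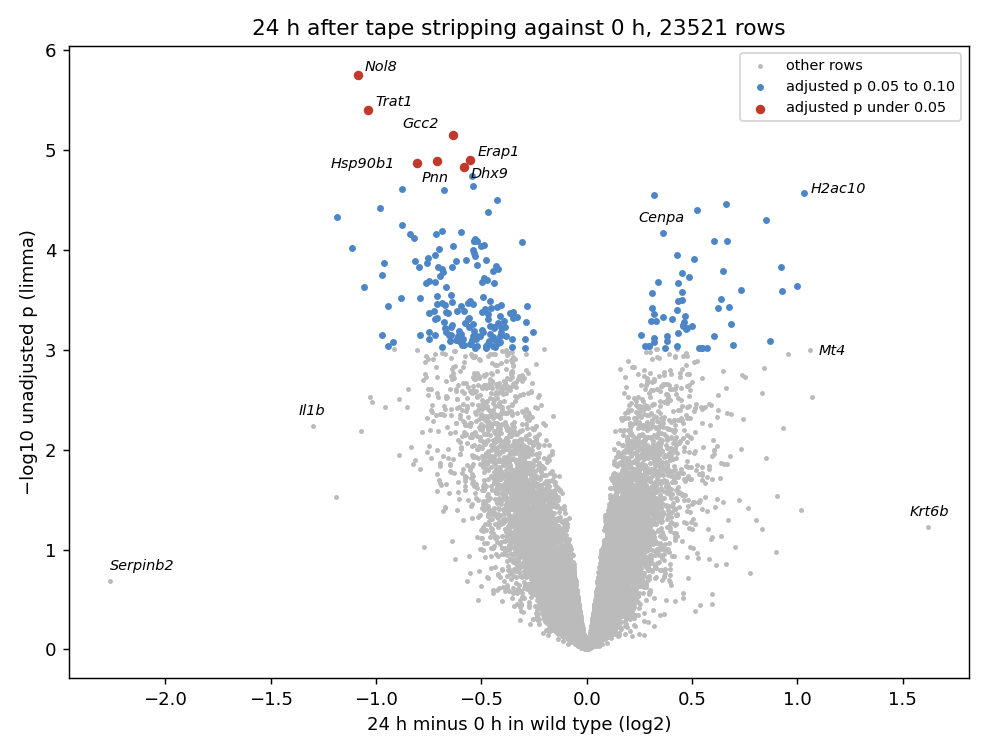
Each point is 1 of 23521 rows: the x axis is the 24 h minus 0 h difference in WT (log2), the y axis is -log10 of limma's unadjusted p, and colours mark rows with an adjusted p under 0.10 and under 0.05. The 7 rows past 0.05 all lie left of 0, and the largest differences, among them Serpinb2 and Krt6b, lie low on the y axis.

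Before stripping, Nol8 read 0.40, 0.41 and 0.61 on the 3 arrays, and at 24 h it read -0.58, -0.66 and -0.60. The gene encodes a nucleolar protein of ribosome production. Its fall was 1.09 ± 0.143 log2 (SE, n = 3 per group, 95% interval -1.39 to -0.78, adjusted p = 0.0418 by limma). The groups lay about a full log2 unit apart, and the 6 h arrays, at -0.12, 0.23 and -0.15, lay between them.

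Trat1 encodes an adaptor that stabilises the T cell receptor complex. On unstressed arrays it read 0.95, 1.22 and 1.22, and after stripping 0.00, 0.29 and 0.00, a fall of 1.04 ± 0.146 log2 (adjusted p = 0.0472). Again no array of one group reached the other. Among the 7 it is the one gene known as a marker of T cells.

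Hsp90b1 encodes GRP94, the HSP90 of the endoplasmic reticulum, which folds integrins and Toll-like receptors. It read 0.43, 0.13 and 0.28 at 0 h and -0.64, -0.32 and -0.61 at 24 h, a fall of 0.81 ± 0.126 log2. Erap1, the aminopeptidase that trims peptides for MHC class I in the same compartment, read 0.13, 0.01 and 0.12 and then -0.53, -0.50 and -0.37, a fall of 0.55 ± 0.0864 log2. Both genes had an adjusted p of 0.04999, just inside the limit, and non-overlapping groups.

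Pnn encodes pinin, a protein of nuclear speckles and desmosomes that takes part in splicing. It read 0.39, 0.28 and 0.29 before stripping and -0.32, -0.32 and -0.53 a day after, a fall of 0.71 ± 0.112 log2. Dhx9, an RNA helicase, read 0.49, 0.33 and 0.33 and then -0.33, -0.14 and -0.13, a fall of 0.58 ± 0.0924 log2. Gcc2, a golgin that tethers vesicles at the trans-Golgi network, read 0.48, 0.27 and 0.38 and then -0.11, -0.39 and -0.27, a fall of 0.63 ± 0.0939 log2. These 3 shared the adjusted p of 0.04999, and each had all 24 h arrays below all 0 h arrays. Against the same 0 h arrays, the 6 h differences of the 7 genes ran from -0.51 to -0.11 log2. The panels of single genes over time show the 6 h arrays mostly between the others.

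**Figure D2:**
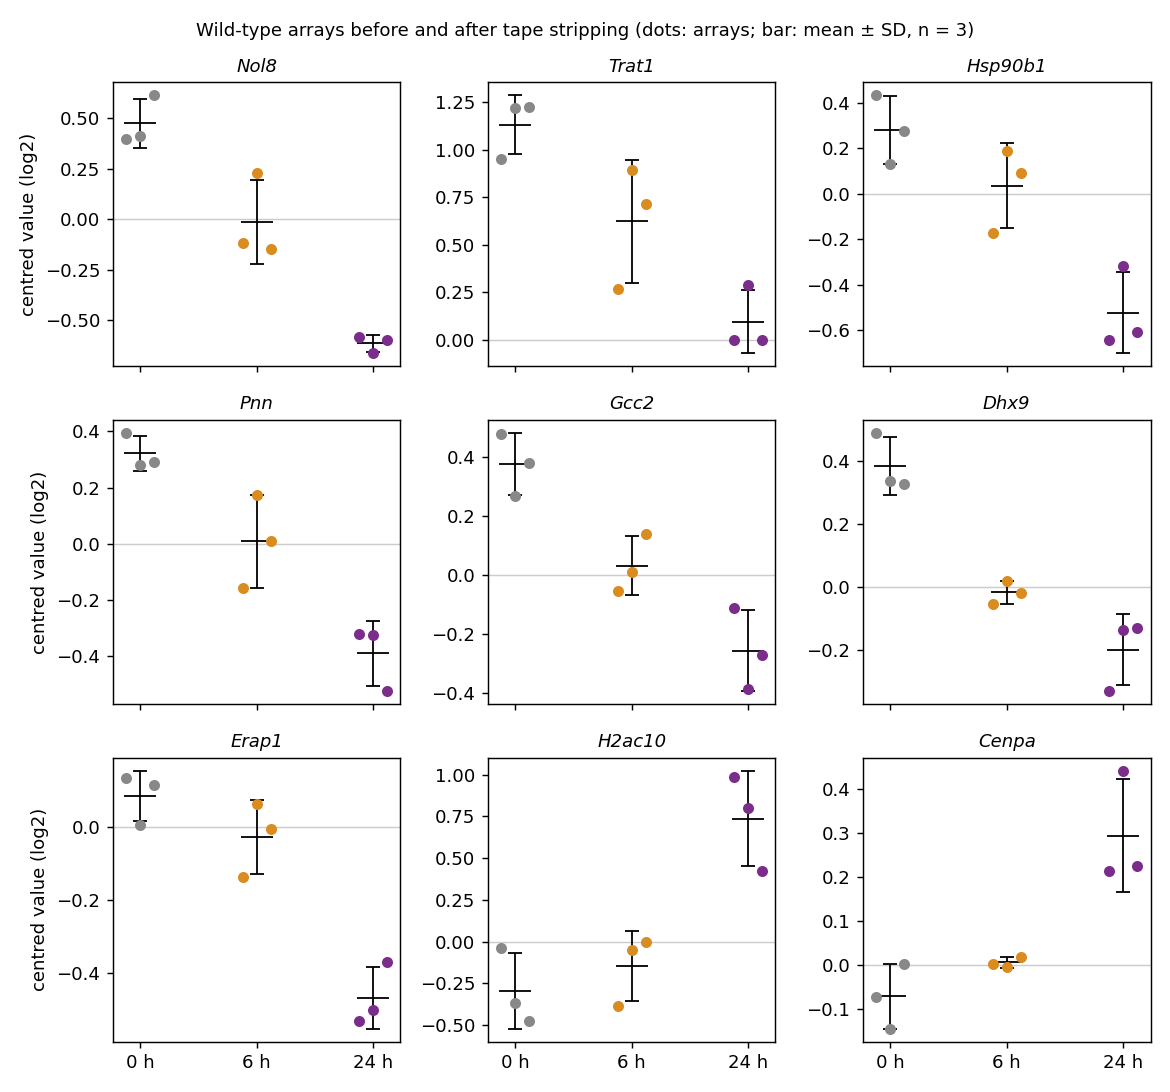
Each panel is 1 gene, with the centred value (log2) on the y axis and WT arrays at 0 h, 6 h and 24 h on the x axis; dots are arrays and bars are the mean ± SD of 3. For the genes that fell, the 24 h dots lie below every 0 h dot, for example Nol8 at -0.58 to -0.66 against 0.40 to 0.61.

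The next 3 genes by p in the falling direction missed the limit at an adjusted p of 0.05102. They were Taf1, the largest subunit of the general factor TFIID, with a difference of -0.54 ± 0.0879 log2. Inpp4b, a phosphoinositide phosphatase, had -0.54 ± 0.0887 log2, and Ccdc66, a cilium and centrosome protein, had -0.88 ± 0.146 log2. In each, the 3 arrays at 24 h lay below the 3 at 0 h.

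In the rising direction no gene passed. The smallest p belonged to H2ac10, a replication-dependent histone H2A gene, which read -0.04, -0.37 and -0.48 at 0 h and 0.99, 0.80 and 0.42 at 24 h. Its difference was 1.03 ± 0.173 log2 with an adjusted p of 0.05102, and the groups did not overlap. Pramel24 had the same adjusted p with a difference of 0.32 ± 0.0537 log2. Behind them came Lsm10 (0.66 ± 0.113, adjusted p = 0.05426), a part of the U7 particle that processes histone transcripts, and Lmo1 (0.52 ± 0.091, adjusted p = 0.05456), a LIM-domain transcription regulator. Cisd1, an iron-sulphur protein of the outer mitochondrial membrane, read -0.64, -0.55 and -0.89 before and 0.01, 0.24 and 0.22 after, a difference of 0.85 ± 0.151 log2. Cenpa, the histone H3 variant of centromeres, and Spc24, a kinetochore subunit, had 0.36 ± 0.0663 and 0.51 ± 0.0989 log2 with adjusted p of 0.05576 and 0.06012. Wif1, a secreted WNT inhibitor, Myog, a muscle transcription factor, and Ctf1, a cytokine of the IL-6 family, complete the 10 smallest p, with 0.67, 0.60 and 0.43 log2.

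Promoters of the 20 genes with the smallest p, 10 in each direction, were read as the 250 bases before the gene start, from RefSeq on GRCm38.p6. All 10 of the lower genes and 9 of the 10 higher genes have an entry. Of the sequences below, 3 belong to genes that fell, of the nucleolus, the endoplasmic reticulum and the nuclear speckle, and the last is the histone gene nearest to a call. Capitals mark every match on either strand to GCGTG, the core of the site bound by AhR with its partner ARNT, or to CCAAT, the box bound by NF-Y (ATTGG on the other strand, as CACGC is for GCGTG). They are Nol8 at chr13:49652828-49653077 on the plus strand, Hsp90b1 at chr10:86705445-86705694 on the minus strand, Pnn at chr12:59066669-59066918 on the plus strand and H2ac10 at chr13:23533625-23533874 on the plus strand.
Nol8: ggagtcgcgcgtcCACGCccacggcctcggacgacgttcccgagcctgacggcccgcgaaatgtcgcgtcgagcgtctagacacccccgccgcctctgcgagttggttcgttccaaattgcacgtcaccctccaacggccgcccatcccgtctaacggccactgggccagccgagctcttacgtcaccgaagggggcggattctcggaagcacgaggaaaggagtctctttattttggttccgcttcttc
Hsp90b1: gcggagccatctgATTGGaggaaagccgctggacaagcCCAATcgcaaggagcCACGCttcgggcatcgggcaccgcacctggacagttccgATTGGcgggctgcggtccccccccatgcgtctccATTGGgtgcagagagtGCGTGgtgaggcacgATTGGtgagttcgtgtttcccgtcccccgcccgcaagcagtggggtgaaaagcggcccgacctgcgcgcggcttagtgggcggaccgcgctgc
Pnn: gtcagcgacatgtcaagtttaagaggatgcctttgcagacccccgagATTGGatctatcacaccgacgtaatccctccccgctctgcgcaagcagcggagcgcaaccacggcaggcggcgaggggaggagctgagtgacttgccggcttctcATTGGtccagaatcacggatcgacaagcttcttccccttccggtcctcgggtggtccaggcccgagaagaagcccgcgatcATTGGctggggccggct
H2ac10: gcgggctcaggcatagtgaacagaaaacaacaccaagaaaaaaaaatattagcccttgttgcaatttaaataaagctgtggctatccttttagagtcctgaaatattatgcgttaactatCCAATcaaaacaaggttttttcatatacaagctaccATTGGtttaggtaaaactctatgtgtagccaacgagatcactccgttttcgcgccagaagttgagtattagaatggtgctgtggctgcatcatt
Hsp90b1 holds 5 CCAAT and 2 GCGTG matches in this window, Pnn 3 CCAAT matches, H2ac10 2 CCAAT matches and Nol8 1 GCGTG match. CCAAT is present in 5 of 10 promoters of lower genes and 4 of 9 of higher genes, and in 34.5% of all 27025 promoters. For GCGTG the counts are 5 of 10, 4 of 9 and 28.2%. The AP-1 site TGANTCA is in 0 of 10, 3 of 9 (Pramel24, Lmo1 and Cisd1) and 6.87%. TTTGAA, the cell cycle homology region, is in 0 of 10, 2 of 9 and 16.3%, E2F's GCGGGAA in 0, 1 and 3.84%, and the E-box CACGTG in 1, 1 and 6.05%. GCGTG and CACGTG can overlap, as can TGANTCA and TTTGAA. A match describes letters in these windows and nothing else.

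Gene groups were described with the share of all rows as the background. Among all rows, 9.31% had all 3 arrays at 24 h above all 3 at 0 h, and 8.43% had them below, while 54.9% had a difference above 0. No set test was made, and members without an adjusted p under 0.05 are given by value only.

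Genes that anchor basal keratinocytes to the basement membrane lay lower at 24 h. Of 22 measured, 20 had a difference below 0, the median was -0.24 log2, and 11 had all arrays at 24 h below all at 0 h. None passed. Itga2, the collagen-binding integrin chain, read 0.47, -0.01 and -0.06 at 0 h and -0.58, -0.41 and -0.57 at 24 h, a difference of -0.65 ± 0.153 log2 (adjusted p = 0.09495). Itgb8 had -0.65 ± 0.155 log2 and Dst, whose epithelial form is the hemidesmosome plakin, -0.42 ± 0.101 log2. Lama3, a chain of the laminin under basal keratinocytes, had -0.54 ± 0.134 log2 with an adjusted p of 0.1042. The first WT array at 0 h stood highest for this list, with a median of 0.30 against 0.11 and 0.07 on the others, and the 24 h arrays had -0.11, -0.03 and -0.02. These are long genes, with a median span of 54968.5 bp.

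Chaperones of the endoplasmic reticulum and unfolded protein response followed the same direction. Hsp90b1 fell, 25 of 29 measured members lay below 0, the median was -0.20 log2, and 8 had non-overlapping lower arrays against 0 higher. Hsp90aa1, the inducible cytosolic HSP90, read 0.45, 0.15 and 0.35 and then -0.42, -0.54 and -0.46, a difference of -0.79 ± 0.186 log2 (adjusted p = 0.09495). Canx and Calr, the calnexin and calreticulin that hold glycoproteins for folding, had -0.41 ± 0.0933 and -0.31 ± 0.0946 log2. Hspa8 lay the other way at 0.54 ± 0.205 log2, with groups that overlap, and its 3 other rows had 0.26, -0.16 and 0.53. The first array at 24 h was lowest, at a list median of -0.30 against 0.00 and -0.10. Without the first array at 0 h the list's median difference was -0.12.

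Nucleolar genes of ribosome production had 14 of 35 members with non-overlapping lower arrays and 1 higher, a median of -0.15 log2 and 29 members below 0. The median was -0.08 without the third array at 0 h and -0.24 without the first. Nol8 is not on this list, and no member of it passed. Ncl, the nucleolin gene, read 0.29, 0.69 and 0.56 at 0 h and -0.29, -0.55 and -0.55 at 24 h, a difference of -0.98 ± 0.17 log2 (adjusted p = 0.05456). Gnl3, or nucleostemin, had -0.94 ± 0.205 log2. Dkc1, the pseudouridine synthase of small nucleolar particles, had -0.65 ± 0.137, and Nop14, of the small-subunit processome, -0.66 ± 0.146 log2. All 4 had separate groups and adjusted p of 0.05456 to 0.08483. In KO epidermis, on other arrays, the same list had a median of 0.30 log2 from 0 h to 24 h. There 7 of 35 members passed higher and 0 lower, against 3.09% and 6.47% of all rows. At 0 h the list medians of the KO arrays, -0.25, -0.21 and -0.15, lay below those of WT, -0.02, 0.12 and 0.21.

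Genes of the interleukin 1 family had a median of -0.25 log2 over 16 measured, with 14 below 0 and 3 whose arrays lay lower without overlap. Without the third array at 0 h the median was -0.095. Il1b, the secreted pyrogen, read -0.30, 0.00 and 0.20 at 0 h and -0.67, -2.40 and -0.94 at 24 h, a difference of -1.30 ± 0.402 log2 (adjusted p = 0.1818). The second 24 h array lay far below the other two, and without it the difference was -0.77. Il1rap, the shared receptor chain, had -0.49 ± 0.134 log2, with 2 other rows of the gene at -0.05 and -0.04. No member passed. The separate list of other cytokines and chemokines did not lie lower. Of 43 measured, 30 lay above 0, the median was 0.04 log2, 3 were separate in each direction, and none passed.

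Markers of the resident immune cells lay mostly below 0. Of 22 T cell markers, 16 lay below 0, 5 had lower arrays without overlap and 1 higher, and the median was -0.13 log2. It was -0.02 without the third array at 24 h and -0.23 without the first at 0 h. Ptprc, or CD45, found on all leukocytes, read 0.44, 0.39 and 0.79 and then -0.27, -0.27 and -0.75, a difference of -0.97 ± 0.196 log2 (adjusted p = 0.06363). Medians of the list per array were 0.11, 0.36 and 0.28 before stripping and 0.15, 0.04 and -0.03 after, so the groups overlap. Trat1 and Ptprc are thus far from the middle of their list. Klrk1, the NKG2D receptor of these T cells, had -0.24 ± 0.0783 log2 (adjusted p = 0.2019).

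Langerhans cell markers had a median of -0.17 log2 over 24 measured, with 16 below 0, 3 lower without overlap and 0 higher. Cd207, the langerin gene that defines these cells, read 0.12, 0.44 and 0.51 at 0 h and 0.01, -0.53 and -0.23 at 24 h, a difference of -0.60 ± 0.208 log2 with an adjusted p of 0.2285. Its 24 h arrays lay below those at 0 h, without a call. For neutrophils and monocytes, which enter inflamed skin, the median over 31 markers was 0.02 log2, with 1 member separate in each direction. Clec7a, the dectin-1 receptor, was the lower one at -0.48 ± 0.0934 log2 (adjusted p = 0.06012).

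On the rising side, genes of G2 and mitosis lay mostly above 0, and none was called. Of 58 measured, 38 lay above 0, 11 had all arrays higher at 24 h and 3 lower, and the median was 0.13 log2. With 1 array left out that median ran from -0.01, without the second array at 0 h, to 0.24, without the first. Cdk1, the kinase that drives entry into mitosis, read 0.04, -0.57 and -0.03 before and 0.45, 0.55 and 0.30 after, a difference of 0.62 ± 0.136 log2 (adjusted p = 0.08256). Ube2c, which tags cyclins for destruction, read -0.06, -1.03 and -0.02 and then 0.48, 0.66 and 0.36, a difference of 0.87 ± 0.208 log2. Ccnb2, Plk1 and Birc5 had 0.75, 0.59 and 0.40 log2, all with separate groups. Other members lay below 0, among them Plk4 at -0.43 and Hmmr at -0.36 log2 (adjusted p = 0.219 and 0.281). Top2a and Mki67, common markers of dividing cells, had -0.17 and -0.12 log2 (adjusted p = 0.866 and 0.936). The second WT array at 0 h was the low one in Cdk1, Ube2c and Ccnb2, and had a list median of -0.25 against 0.22 and 0.01. The second array at 24 h was the high one, at 0.31 against 0.01 and 0.10, so the list medians of the groups overlap.

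Histone genes were collected after the values were seen, because H2ac10 led the higher genes, so their count is a description. Of 32 measured, 26 lay above 0, 16 had higher arrays without overlap and 0 lower, and the median was 0.23 log2, or 0.15 without the first array at 24 h. H2ax, the variant marked at DNA breaks, read 0.00, -0.60 and -0.55 at 0 h and 0.69, 0.56 and 0.37 at 24 h, a difference of 0.92 ± 0.183 log2 (adjusted p = 0.06012). H1f2, a linker histone, read -0.44, -0.07 and -0.04 and then 1.02, 0.58 and 0.64, a difference of 0.93 ± 0.195 log2. The list median lay between -0.07 and -0.03 on the 0 h arrays and between 0.07 and 0.19 on the 24 h arrays, without overlap. Histone genes are short, with a median span of 513 bp. Genes of DNA replication, the MCM helicase and its partners, had smaller differences: 42 were measured, the median was 0.04 log2, 6 lay higher without overlap and 1 lower. That median was -0.06 without the third array at 24 h and 0.08 without the first.

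Barrier and stress genes gave values on both sides. Of 31 genes of ceramide and barrier lipids, 8 had higher arrays without overlap and 0 lower, while the median was -0.02 log2. Cers2 and Cers4, ceramide synthases, had 0.52 ± 0.132 and 0.56 ± 0.164 log2, and a second row of Cers2 had -0.14. NRF2 and glutathione genes had 7 higher and 1 lower without overlap among 30, with Gstm2, a glutathione transferase, at 0.73 ± 0.153 log2 (adjusted p = 0.07353). Mt4, the metallothionein of stratified epithelia, read -0.57, -0.16 and -0.71 and then 0.77, 0.67 and 0.28, a difference of 1.06 ± 0.259 log2 (adjusted p = 0.1005). Klf2, a transcription factor, had 0.61 ± 0.143, and the late-differentiation gene Calml3 had 0.32 ± 0.0768 log2. These were single members: the median was -0.10 log2 for metallothioneins and zinc transport and -0.02 for immediate early genes. For cornified envelope genes it was 0.01. On the lower side lay Spink5, of the kallikrein inhibitors, at -0.64 log2 (adjusted p = 0.121). Scd3, a lipid gene, lay there too, at -0.889 log2 (adjusted p = 0.147). Both were again single members. Kallikreins and inhibitors had a median of 0.08 log2, with 15 of 20 above 0, and sebaceous and neutral lipid genes one of -0.02. No gene named in this paragraph passed.

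Wound keratins and small proline-rich proteins, genes tied to stressed keratinocytes, gave no call, and Krt6b and Krt16 differed widely between arrays of 1 group. The list of wound keratins holds Krt6a, Krt6b, Krt16 and Krt17 together with Krt75 to Krt80. Its 10 members had a median of -0.02 log2, with 0 higher and 1 lower without overlap. Krt75 to Krt80 ran from -0.25 to 0.04 log2. Krt6a and Krt17 had 0.27 and 0.14 log2 (adjusted p = 0.928 and 0.778). Krt6b read -1.60, -0.81 and 0.01 at 0 h and -0.94, 0.87 and 2.53 at 24 h, a difference of 1.62 ± 0.794 log2 whose 95% interval ran from -0.08 to 3.31 (adjusted p = 0.4269). Krt16 read -1.14, 0.14 and 0.84 and then -0.51, -0.51 and 0.52, a difference of -0.11 ± 0.477 log2 with an interval of -1.13 to 0.90. Its sign turned positive when the third 0 h array or the first or second 24 h array was left out. Small proline-rich proteins had a median of 0.01 log2 over 11 measured, and alarmins and antimicrobial peptides 0.04 over 22. In KO epidermis the difference of Krt6b was 5.34 ± 0.794 log2, and the test of the genotypes' difference gave 3.72 log2 with an adjusted p of 0.3137.

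Serpinb2, the plasminogen activator inhibitor 2 of keratinocytes, had the largest difference of all rows, which rests on 1 array. It read 0.10, 0.10 and 0.21 before stripping and 0.00, -6.40 and 0.02 a day later. The -6.40 is the lowest value of the whole table. The difference was -2.26 ± 1.72 log2 (adjusted p = 0.6487), and -0.13 without the second 24 h array. That array was also the lowest for Il1b and the highest for Krt31, a hair keratin, at 1.41 against 0.11 and 0.31. Hair follicle genes had a median of 0.15 log2 over 39, with 6 higher without overlap and 0 lower, and list medians of 0.10, 0.29 and 0.05 on the 24 h arrays against -0.04 to 0.00 at 0 h. Their median difference was 0.05 without the second 24 h array and 0.27 without the third. How much follicle came away with the sheets, and its part in the other differences, was not tested. Markers of mast cells, adipocytes, skeletal muscle, endothelium and fibroblasts had medians of 0.01 to 0.05 log2 and melanocyte markers -0.03. Without overlap, 5 of 21 muscle markers lay higher and 1 lower, and 3 of 15 adipocyte markers higher and 1 lower. Fibroblasts had 2 higher and 0 lower of 21, and mast cells 2 and 0 of 10. Endothelium had 1 and 0 of 18, with 16 above 0. Keratinocyte identity genes had a median of -0.13 over 16, with 5 lower and 1 higher without overlap.

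**Figure D3:**
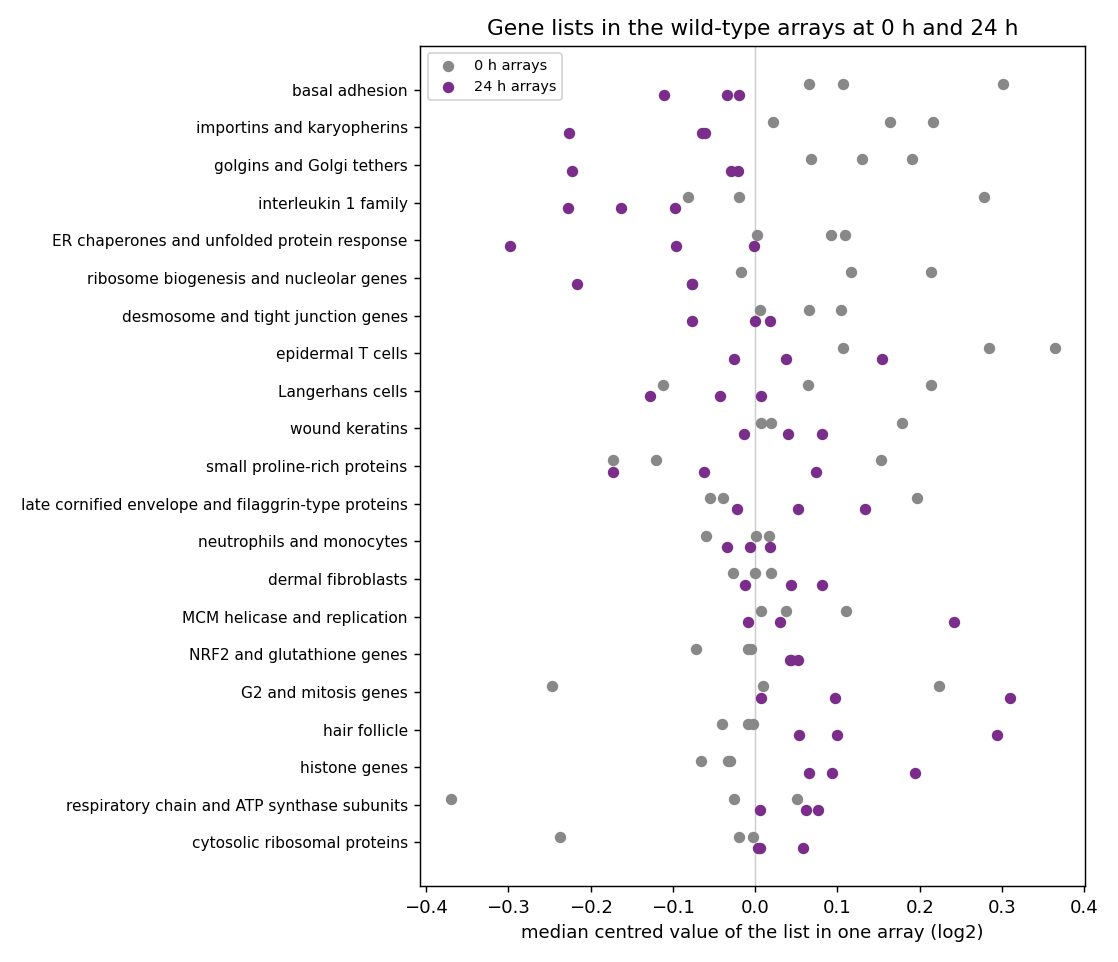
Each row is a gene list and each point the median centred value of that list on 1 WT array (log2, x axis) at 0 h or 24 h. Basal adhesion, importins and golgins lie lower on all 24 h arrays than on all 0 h arrays, histones lie higher, and the first 0 h array stands apart for ribosomal and respiratory genes.

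Further groups were put together after the values were seen, from families that recur among the lower rows, and are given as description. Importins and karyopherins, which carry cargo through nuclear pores, had 13 of 23 members lower without overlap and 0 higher, with a median of -0.29 log2. Ipo9 read 0.25, 0.27 and 0.20 and then -0.31, -0.10 and -0.28, a difference of -0.47 ± 0.0819 log2 (adjusted p = 0.05456). Golgins and Golgi tethers had 13 of 26 lower and 0 higher, a median of -0.23, and Tmf1 at -0.82 ± 0.159 log2 beside Gcc2. RNA-binding motif and SR splicing factors had 25 lower and 5 higher of 91, a median of -0.14 (-0.08 without the first array at 24 h), and Thoc2, of the mRNA export complex, at -0.84 ± 0.154 log2 beside Pnn. DEAD and DEAH box helicases had 17 lower and 0 higher of 50, a median of -0.15, and Ddx46, a spliceosome helicase, at -0.63 ± 0.119 log2 beside Dhx9. Zinc finger protein genes, 336 in all, had 63 lower and 19 higher with a median of -0.05.

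Short housekeeping genes lay on the other side. Cytosolic ribosomal proteins had a median of 0.11 log2 over 66, mitochondrial ribosomal proteins 0.14 over 71, and subunits of the respiratory chain and ATP synthase 0.18 over 72. Here the first 0 h array moved with the result. It had list medians of -0.24, -0.29 and -0.37 for the 3 families, while the other 0 h arrays lay between -0.04 and 0.05 and the 24 h arrays between 0.00 and 0.08. Without that array the median differences were 0.02, 0.06 and 0.05 log2. Mrpl55 was the member with the smallest p, at 0.47 ± 0.105 log2 (adjusted p = 0.08735).

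Gene length differed between the rows on either side. The median span of protein-coding genes was 18950.5 bp over all rows, 54572.5 bp for the 170 lower rows and 5030 bp for the 59 higher rows. Of the lower rows 88.1% lay above the overall median span, and of the higher rows 17.5%. Across 20158 protein-coding rows, which are not independent of each other, the 24 h difference had a Spearman correlation with span of -0.262. In the second shortest of 10 bins of genes the median difference was 0.06 log2 and 29.1% lay below 0, and in the second longest bin these were -0.05 log2 and 61.9%. These 2 bins are the most extreme of the 10: the shortest had 0.02 log2 and 37.4%, and the longest -0.02 log2 and 56.4%. The correlation of single arrays with span was 0.309, 0.02 and 0.0888 before stripping and -0.224, -0.000414 and -0.112 a day after. The first arrays of both groups lay at the ends, and all 24 h arrays lay below all 0 h arrays. With each array's straight-line trend on the log of gene span removed, 7 rows passed, the same 7 and all lower. An adjusted p under 0.10 was then found for 106 rows, 100 of them among the 229. The bin medians do not follow a straight line, so a part of the trend can remain. The part of RNA quality or array handling in these differences was not tested.

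**Figure D4:**
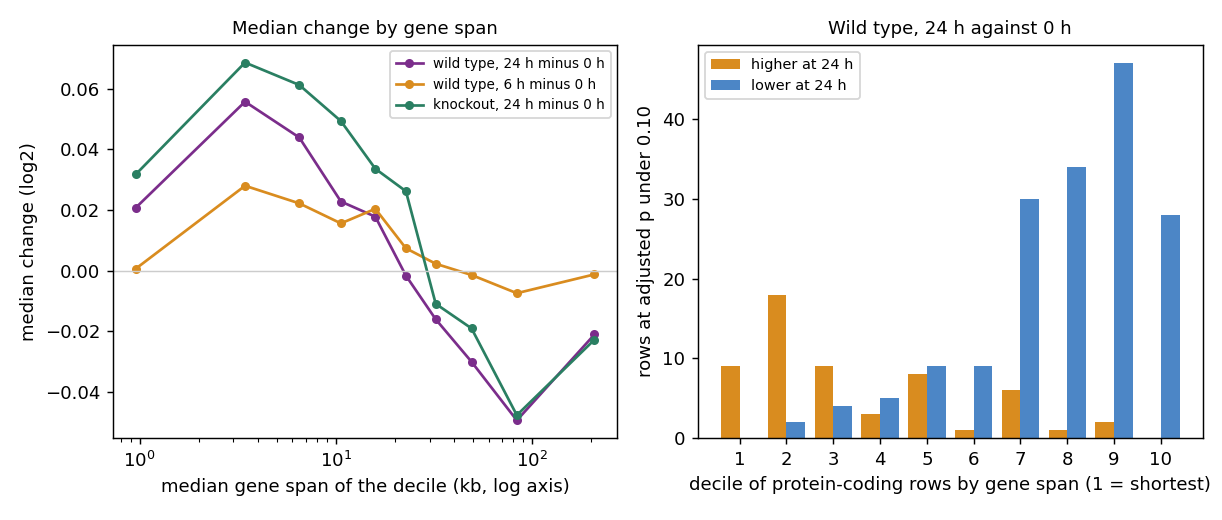
Left, the median 24 h minus 0 h difference (log2) in each of 10 bins of protein-coding genes by span (kb, log axis), for WT at 24 h and 6 h and KO at 24 h; right, the number of WT rows with an adjusted p under 0.10 in each bin, higher and lower. Rows that were higher gather in the short bins, 18 of them in the second, and lower rows in the long ones, 47 in the ninth.

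The 24 h difference was set beside the earlier time point. From 0 h to 6 h in WT no row passed in limma, 1086 had an unadjusted p under 0.05 (4.62%), and the smallest adjusted p was 0.229. Between 6 h and 24 h again 0 passed, with 1833 unadjusted (7.79%) and a smallest adjusted p of 0.117. Both comparisons share arrays with the 24 h result, so their values are set side by side only. The 170 lower rows had a median difference of -0.25 log2 at 6 h and -0.56 at 24 h, and the 59 higher rows 0.20 and 0.46 log2. Cenpa, at 0.00, 0.00 and 0.02 on the 6 h arrays, and H2ac10, at -0.38, -0.05 and 0.00, were at 6 h still close to their 0 h values. The MCM list had a median difference of -0.25 log2 at 6 h and 0.04 at 24 h.

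The same contrast was read in KO epidermis, on other arrays but in the same fit. Both genotypes share the estimate of each row's spread. Rows with a low p in WT are thus partly chosen for a small spread in KO too, which raises their share passing there. In KO 2249 rows passed, 9.56% of all, with 727 higher (3.09%) and 1522 lower (6.47%), and 59% of rows lay above 0. Of the 170 rows lower in WT at an adjusted p under 0.10, 109 passed as lower in KO (64.1%) and 0 as higher. Of the 59 higher rows, 17 passed as higher (28.8%) and 1, Hs3st6, as lower. All 7 genes that fell in WT lay below 0 in KO, and 6 passed there. The fall in KO was 0.73 ± 0.143 log2 for Nol8, 0.74 ± 0.126 for Hsp90b1, 0.69 ± 0.112 for Pnn, 0.43 ± 0.0939 for Gcc2, 0.46 ± 0.0924 for Dhx9 and 0.98 ± 0.0864 for Erap1. Trat1 had -0.37 ± 0.146 log2 in KO with an adjusted p of 0.1391. Over all 23521 rows the differences of both genotypes had a Pearson correlation of 0.51 and a Spearman correlation of 0.405, across genes that are not independent. Gene span correlated with the KO difference at -0.269, close to the WT value.

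**Figure D5:**
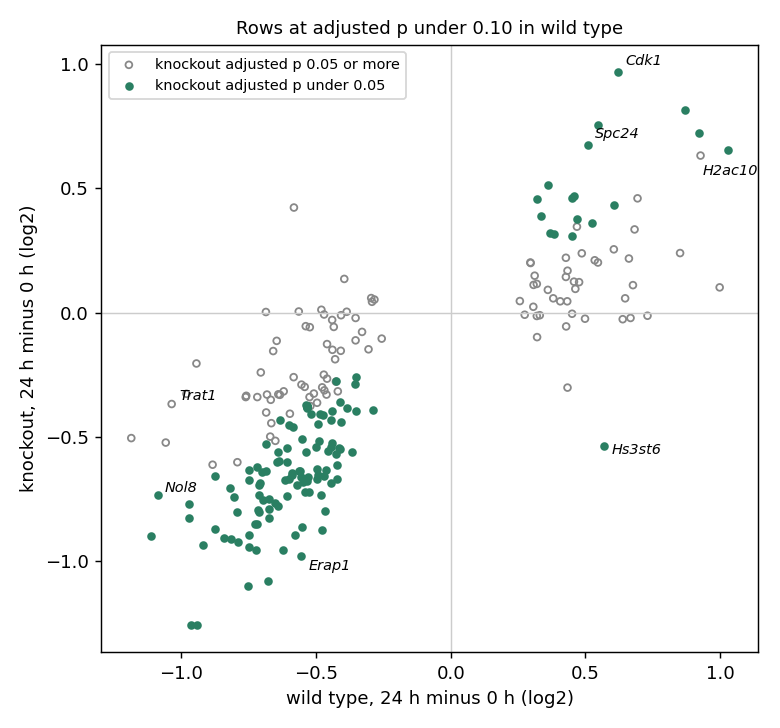
The x axis is the 24 h minus 0 h difference in WT and the y axis the same in KO (both log2) for the rows with an adjusted p under 0.10 in WT, chosen on the WT difference. Of the 170 lower rows 161 lie below 0 in KO, and of the 59 higher rows 47 lie above 0.

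Whether the genotypes differ in this response was tested directly. No row passed in limma, 2165 had an unadjusted p under 0.05 (9.2%), and the smallest adjusted p was 0.1017. With the first WT array at 0 h left out, 32 rows passed. Without the second KO array at 24 h 2 passed, and without the third 1. The genes with the smallest p in the direction of a higher KO response were Slc25a10, Mcm2, Krt16, Psmd3 and Csta3. Their WT differences were -0.06, -0.08, -0.11, -0.08 and 0.19 log2, none of which passed, and their KO differences 0.76, 1.07, 3.40, 0.57 and 2.73 log2, all of which did. Mcm2, a subunit of the replicative helicase, read -0.08, 0.16 and 0.24 at 0 h and 0.13, -0.12 and 0.08 at 24 h in WT. In the other direction were Cd59a, Fbxo32, Hs3st6, Klhl24 and Bbox1, with WT differences of 0.23, 0.16, 0.57, -0.26 and 0.04 log2 and KO differences of -0.94, -1.07, -0.54, -1.46 and -0.86. Hs3st6, a heparan sulphate sulphotransferase, read -0.02, -0.41 and -0.56 at 0 h and 0.27, 0.41 and 0.02 at 24 h in WT, a difference of 0.57 ± 0.139 log2 (adjusted p = 0.09949). For the ribosome biogenesis list the medians were -0.15 in WT and 0.30 in KO, and for the MCM list 0.04 and 0.48. Of the 42 MCM members 25 passed as higher in KO (3.09% of all rows did) and 0 in WT. Both lists already lay lower on all KO arrays than on all WT arrays at 0 h. The MCM medians there were -0.19, -0.16 and -0.06 in KO and 0.04, 0.01 and 0.11 in WT.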

How the data were processed

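The authors deposited 1 table of 33793 rows by 18 arrays, made from total RNA hybridised to Affymetrix arrays. Its values, per the deposited numbers, lie on a log scale from -6.4 to 4.3 and were read as log2; were they natural logs, every difference would be larger by 1 factor. Each row has a median of 0 over the arrays, within 1e-06, so the authors had centred it, and no filter on dim rows was possible. The sources used here do not give the normalisation between arrays. Groups and replicates came from the titles.

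By the platform's annotation 23521 rows name 1 gene symbol (22180 genes), 1814 several and 8458 none, and only the first were tested. A gene with several rows was read from its most variable row (SD over all arrays). The model, limma 3.58.1 in R 4.3.3, held 6 group means over all 18 arrays, with 12 residual and 2.76 prior degrees of freedom. Its 2-sided p-values had Benjamini-Hochberg adjustment over 23521 rows, and passing means an adjusted p under 0.05. The script was tested on simulated data. An exact permutation test of 3 arrays against 3 cannot go below a p of 0.1, so none is given. The number of arrays limits the precision.

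Named genes are those that passed, then the smallest p up to 10 in each direction, then up to 8 members of each list by p, and the 5 smallest p in each direction for the genotype difference; predicted genes and small RNAs were left out. Ahr was part of this naming rule. Other choices, such as describing Serpinb2 at length, were made after the values were seen. The comparison, the 42 lists and the rule were chosen with earlier results of these data known, and 9 further families were added after seeing the values. Gene spans and promoters come from RefSeq on GRCm38.p6. Alternatives varied the normalisation, the samples fitted, blocks, weights, row choice and thresholds.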

Additional observations from a re-analysis of the deposited data

Results flagged for a closer look

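Among the 10272 rows that name several genes or none, and so enter no comparison above, 41 had an adjusted p under 0.10 in limma's fit of the whole table, 24 higher and 17 lower at 24 h. A signal past an adjusted p of 0.05 appeared in 2 of them. The row 17400545 differed by 0.587 log2 and the row 17408017 by 0.588 log2, each with an adjusted p of 0.0239 and several gene symbols, so no gene is named from them. The first read -0.19, -0.21 and -0.20 at 0 h and 0.48, 0.45 and 0.23 at 24 h, and the second differed from it by less than 0.01 on each of these arrays.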

How the results depend on the processing

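All 7 genes stayed below 0 in every alternative run, but they were chosen for their fall and their groups do not overlap. The count of 7 rows depended on the processing. It was 264 after a second quantile normalisation (71 higher, 193 lower) and 164 with array weights (39 and 125). It was 175 for the rows with the larger SD over the 18 arrays, a filter not independent of the test. With label numbers from 3000 up alone, which leaves 1 array at 0 h assumed to vary like the other groups, it was 390 (111 and 279). It was 3 with arrays shifted to a median of 0, 4 for all rows of the table (2 and 2), 2 on the 6 WT arrays alone and 0 on the 9 WT arrays alone. With robust eBayes it was 0, as it was at an adjusted p under 0.01; a fold limit of 1 log2 left 2, and an adjusted p under 0.10 gave 229. Leaving out 1 of the 6 arrays gave 0 in each case, and so did leaving out the first arrays of both groups together, which was added after seeing the data, as was removing the span trend. The label number class as a block gave 9 (2 and 7). Where limma called 0 rows under these fits, 2065 to 2990 had an unadjusted p under 0.05. The cause of these shifts was not tested. With the replicate number as a block 0 rows passed. Samples with the same number had deviations correlated at -0.224, -0.182 and 0.0143, and those with unlike numbers from -0.087 to 0.228. With 3 arrays a group, such values can neither show nor exclude a pairing. The block changed the KO count to 2038 and left 0 rows at 6 h, between 6 h and 24 h and for the genotype difference.

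Leaving out 1 array gave 0 to 19 rows between 6 h and 24 h (19 without the first array at 6 h), 1029 to 1848 in KO and 0 to 32 for the genotype difference. The difference of Krt16 turned to 0.97 log2 with label numbers from 3000 up alone and ran from -0.66 to 0.33 with 1 array left out; with the same numbers alone Slc25a10 gave 0.049, Mcm2 0.10 and Fbxo32 -0.06. Of 816 list medians under the alternatives, 54 moved by more than the spread between replicates and 79 changed sign.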
